A study of Mus musculus with 8 samples.

Results

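Keratins are the intermediate filament proteins of epithelial cells, and 34 keratin genes were found among the 32098 gene rows measured in 8 tumours of the mouse 4T1 cell line. They were taken as every row whose symbol consists of Krt, a number and at most 1 further letter, and were divided into 4 luminal, 4 basal, 10 suprabasal, 9 hair and 7 other keratins. Of the 34, 17 are type I (acidic) and 17 type II (basic). RNA sequencing was carried out on whole tumours in 2 groups. In the RI group, 4 tumours (replicates 1, 2, 4 and 5), the label gives radiation together with an immune checkpoint inhibitor. In the ICI group, 4 tumours (replicates 1, 2, 3 and 4), it gives the inhibitor alone. All 8 carry the genotype label WT and come from 4T1, a mammary carcinoma line grown as a tumour, so host cells are measured together with cancer cells. The inhibitor, the radiation dose and the host strain and age are not given in the labels, nor whether an RI tumour lay inside the irradiated field. Separate animals are not stated, so the p-values reflect how far these samples spread, and some of that spread may be technical. The series' design text gives 3 replicates a group, whereas 4 are listed for each, and all 8 were used.

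Keratin filaments are built from pairs of a type I and a type II chain, and the pair in use marks the kind of epithelium. Krt8 and Krt18 form the filaments of simple and glandular (luminal) epithelium, often with Krt7 and Krt19. Krt5 and Krt14 mark the basal layer of skin and the basal cells of mammary gland, Krt1 and Krt10 the layers above it, and a further set builds the hair shaft and its root sheath. In whole tumours, fewer cells of a type and less RNA per cell cannot be told apart.

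The tumours held the simple epithelial pair at high level, and most keratins of skin and hair were near the limit of detection. The genes had been grouped as keratins of tumour and adjacent skin, and the data show little of the type II keratins that define skin. Krt1, the type II keratin of the layers above the basal one, had 5 fragments in ICI 1 and 0 in the other 7 tumours. Krt5, the type II keratin of the basal layer, had 26 fragments in RI 1, 1 in RI 4 and 0 elsewhere. Their type I partners Krt10 and Krt14 were low but detected in all 8 tumours, with 789 and 701 fragments. They reached 2.30 and 3.40 FPKM. Of the 647654 fragments recovered for all 34 keratins, 579337 belonged to Krt8 and Krt18 and 9300 to the 30 keratins outside the luminal group. In single tumours the luminal keratins made up 97.8% to 99.6% of the summed keratin FPKM (fragments scaled for exon length and for library size). Of the 34 genes, 22 stayed under 1 FPKM in every tumour, 12 of these under 0.1 FPKM. Fragments were detected in all 8 tumours for 9 keratins and in fewer than 4 tumours for 15. The reference annotation lists 54 keratins under the same name pattern. The other 20, of which 15 are hair and 5 suprabasal keratins, have no row and were not analysed here.

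Library sizes recovered from the FPKM steps were 27013200 to 42622700 fragments in RI and 32942300 to 42551200 in ICI tumours. A count of 0 in these libraries allows up to 3 fragments, which for Krt5 is 0.0320 to 0.0505 FPKM in RI and 0.0321 to 0.0415 FPKM in ICI tumours, counting error only. Libraries RI 4 and ICI 1 stood apart from their groups. In RI 4, rows outside the reference annotation took 17.5% of the fragments, against 0.6% to 1.1% in the other 7 tumours, and the FPKM summed to 717092, against 358243 to 494399. FPKM is scaled to all fragments of a library. At an equal share of the annotated fragments, a keratin therefore has a lower FPKM in RI 4 than in the other tumours. The number of genes at 1 FPKM or more was 14750 in ICI 1 and 12682 to 13575 in the other tumours.

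The promoters of the 3 most abundant keratins and of Krt10, the 1 keratin called changed below, are shown because the results below turn on these 4 genes. All but 1 of the type I genes lie on chromosome 11, where 16 members fall between positions 99232761 and 100269871 (GRCm38). The other 18, including Krt18, lie on chromosome 15 between 101347444 and 102032027. Krt8 and Krt18 stand there head to head, with their annotated starts 23698 bases apart. Promoter sequences of RefSeq, from 250 bases before to 50 bases after the start on GRCm38.p6, were matched for 20 of the 34 keratins. Capitals mark matches on either strand to any of the motifs searched. The TATA box was searched as TATAAA. The GC box was searched with the letters GGGCGG. For the AP-1 site the letters were TGANTCA.
Krt8 (chr15:102004293-102004592, minus strand): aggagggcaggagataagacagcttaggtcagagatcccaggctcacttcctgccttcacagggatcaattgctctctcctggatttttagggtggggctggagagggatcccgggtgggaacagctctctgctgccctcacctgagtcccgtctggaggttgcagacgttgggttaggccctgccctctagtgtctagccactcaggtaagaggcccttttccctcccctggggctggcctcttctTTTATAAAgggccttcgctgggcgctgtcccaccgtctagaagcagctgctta
Krt18 (chr15:102027966-102028265, plus strand): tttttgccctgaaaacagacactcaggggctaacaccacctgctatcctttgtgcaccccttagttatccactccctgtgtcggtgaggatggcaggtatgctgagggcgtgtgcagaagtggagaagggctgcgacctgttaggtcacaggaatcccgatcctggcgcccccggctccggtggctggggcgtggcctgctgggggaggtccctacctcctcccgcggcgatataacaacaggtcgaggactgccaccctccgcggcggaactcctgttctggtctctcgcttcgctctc
Krt7 (chr15:101412153-101412452, plus strand): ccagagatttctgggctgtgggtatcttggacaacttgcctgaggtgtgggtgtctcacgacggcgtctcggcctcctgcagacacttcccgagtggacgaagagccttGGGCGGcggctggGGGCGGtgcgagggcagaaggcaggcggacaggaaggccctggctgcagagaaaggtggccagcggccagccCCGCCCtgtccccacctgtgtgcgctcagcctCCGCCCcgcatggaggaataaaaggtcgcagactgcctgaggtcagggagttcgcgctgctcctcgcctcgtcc
Krt10 (chr11:99389315-99389614, minus strand): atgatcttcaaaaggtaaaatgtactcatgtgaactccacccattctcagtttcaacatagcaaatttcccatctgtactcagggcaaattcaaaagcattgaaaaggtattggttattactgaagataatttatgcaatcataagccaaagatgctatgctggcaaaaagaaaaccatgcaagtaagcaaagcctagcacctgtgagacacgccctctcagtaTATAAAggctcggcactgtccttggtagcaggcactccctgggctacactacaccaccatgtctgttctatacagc
The Krt8 window holds 1 stretch read as TATAAA on both strands, 3 and 1 bases before the RefSeq start. That of Krt10 holds TATAAA 26 bases before the start. The Krt7 window holds 4 GC boxes, 141, 128, 56 and 24 bases before the start, and the Krt18 window has no match to the 3 motifs. Over 32851 mouse promoters of the same length, 13.6% hold the TATA box letters, 35.7% those of the GC box and 7.81% those of the AP-1 site. For Krt8, Krt18 and Krt7 the starts in GENCODE M21 differ from those of RefSeq. A match is a description of these letters.

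**Figure D1:**
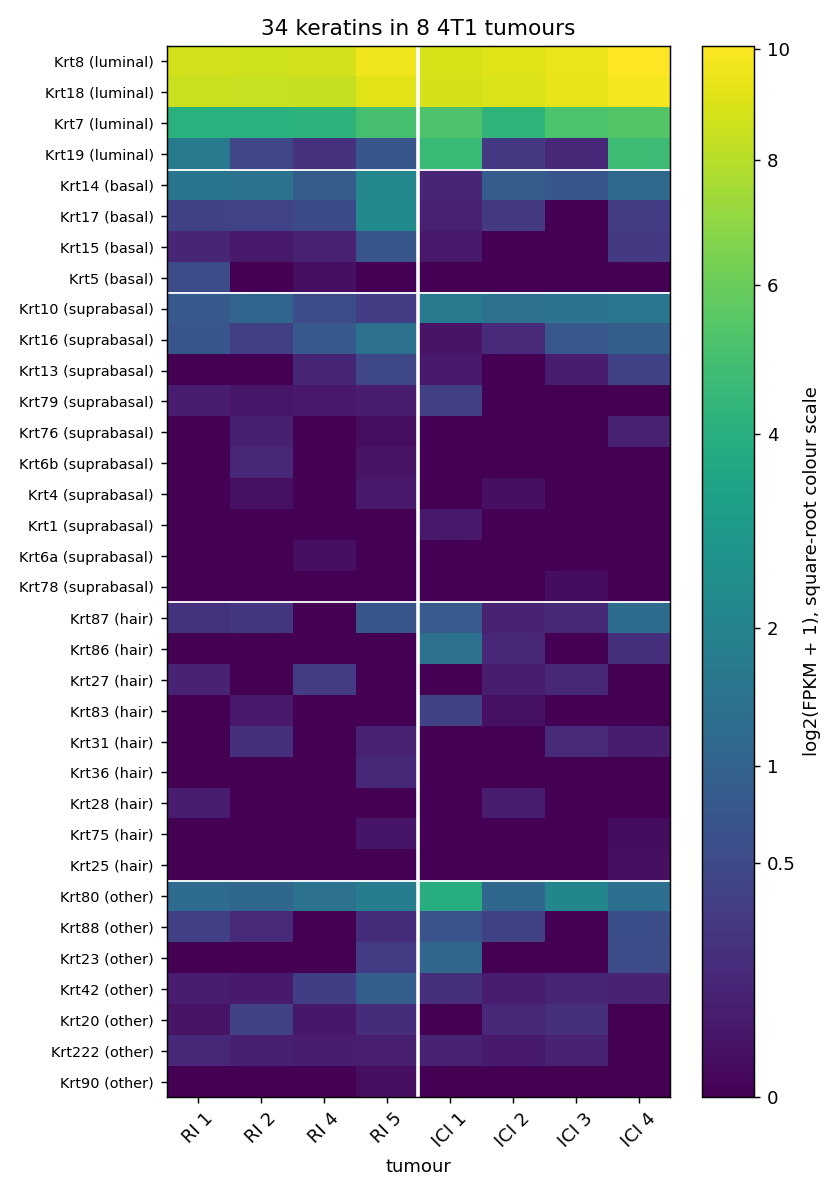
Level of the 34 keratins (rows, by group) in the 4 RI and 4 ICI tumours (columns), as log2(FPKM + 1) on a square-root colour scale. Krt8, Krt18 and Krt7 are high in all 8 tumours, Krt19 is high in ICI 1 and ICI 4, and most basal, suprabasal and hair keratins lie near 0.

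Radiation added to the inhibitor was compared with the inhibitor alone by limma on log2(FPKM + 1) over the 13439 genes that reached 1 FPKM in 4 or more tumours. Of the 34 keratins 6 passed this filter (Krt8, Krt18, Krt7, Krt14, Krt10 and Krt80). Among them 1 fell (Krt10), 0 rose and 5 did not pass an adjusted p under 0.05, and 3 had an unadjusted p under 0.05 (Krt7, Krt14 and Krt10). Over all genes, 4822 of the 13439 had an unadjusted p under 0.05. Limma voom on the recovered fragments also called Krt10 alone of the keratins, and 3473 of 13320 genes in all. The RI and ICI values did not overlap for 1 of the 6 (Krt10), against 27.9% of all genes tested. Over all genes tested 17.7% were called, 11.1% higher and 6.6% lower in RI, so that 1 call among 6 keratins is near the share of all genes. The median log2 difference of the 6 was -0.62, against 0.01 over all genes. Keratins below the filter with fragments in at least 4 tumours, 13 in all, were compared one by one in an exact permutation test (two-sided, 70 regroupings, smallest possible p 0.0286). Of these 13, 1 (Krt17) had an unadjusted p under 0.05, against 7.17% of the 10116 genes of that kind.

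Krt8, the type II chain of simple epithelium, had 419, 412, 419.7 and 792 FPKM in RI 1, 2, 4 and 5, against 468, 559, 702 and 1064 FPKM in ICI 1, 2, 3 and 4. Its partner Krt18 had 371, 353, 333 and 577 FPKM in the RI tumours in the same order, against 438, 502, 666 and 877 FPKM in the ICI tumours. For both genes RI 1, RI 2 and RI 4 lay below every ICI tumour in FPKM, and RI 5 lay inside the ICI range. For Krt8 the place of RI 4 depends on the scaling. Krt8 had 29893 fragments in RI 4, of 30011400 in annotated genes, and 30165 in ICI 1, of 32675200. On that base RI 4 lay above ICI 1 for Krt8 and below it for Krt18 (17407 and 20721 fragments). Krt8 averaged 510.4 ± 188 FPKM in RI and 698 ± 262 FPKM in ICI (SD, n = 4 each), a log2 difference of -0.44 (SE 0.31, limma with Benjamini-Hochberg adjusted p = 0.333). Krt18 averaged 408 ± 114 FPKM in RI and 621 ± 196 FPKM in ICI (SD, n = 4 each), a log2 difference of -0.59 (SE 0.27, adjusted p = 0.151). Neither difference passed the test, and the 95% intervals ran from -1.14 to 0.26 for Krt8 and from -1.19 to 0.02 for Krt18. Quantile normalization turned the sign for Krt8 to 0.10 (adjusted p = 0.796). With array weights, which give less weight to tumours far from their group, Krt18 passed at -0.67 (adjusted p = 0.0292).

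The proportion of the 2 chains was between 1.05 and 1.37 in all 8 tumours. The ratio of Krt8 to Krt18 FPKM, a quantity scaled for gene length, was 1.13, 1.17, 1.26 and 1.37 in RI 1, 2, 4 and 5, against 1.07, 1.11, 1.05 and 1.21 in ICI 1, 2, 3 and 4. It averaged 1.23 ± 0.108 in RI and 1.11 ± 0.0718 in ICI tumours (SD, n = 4 each), which overlapped (two-sided exact permutation p = 0.114, smallest possible 0.0286). Among all genes of a tumour Krt8 ranked 47 to 107 by FPKM in RI and 63 to 111 in ICI. Vim, the intermediate filament protein of mesenchymal cells, had 657 to 794 FPKM in RI and 723 to 1349.8 FPKM in ICI tumours (adjusted p = 0.191). The ratio of Krt8 to Vim was 0.518 to 1.00 in RI and 0.584 to 0.788 in ICI tumours.

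Krt7, a type II keratin of glandular and ductal epithelium, had 16.0, 15.9, 17.2 and 31.6 FPKM in RI 1, 2, 4 and 5, against 36.1, 18.3, 35.5 and 40.3 FPKM in ICI 1, 2, 3 and 4. The groups overlapped through RI 5 and ICI 2. It averaged 20.2 ± 7.62 FPKM in RI and 32.5 ± 9.74 FPKM in ICI (SD, n = 4 each), a log2 difference of -0.66 (SE 0.29, limma with Benjamini-Hochberg adjusted p = 0.134). The exon union of Krt7 spans 7049 bases and its principal transcript 4094. Scaled to the transcript, the means were 34.8 FPKM in RI and 56.0 FPKM in ICI. Without ICI 2 the difference was -0.91 (adjusted p = 0.0478). The summed luminal keratins were 770.0 to 1401 FPKM in RI and 964 to 2006 FPKM in ICI tumours.

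**Figure D2:**
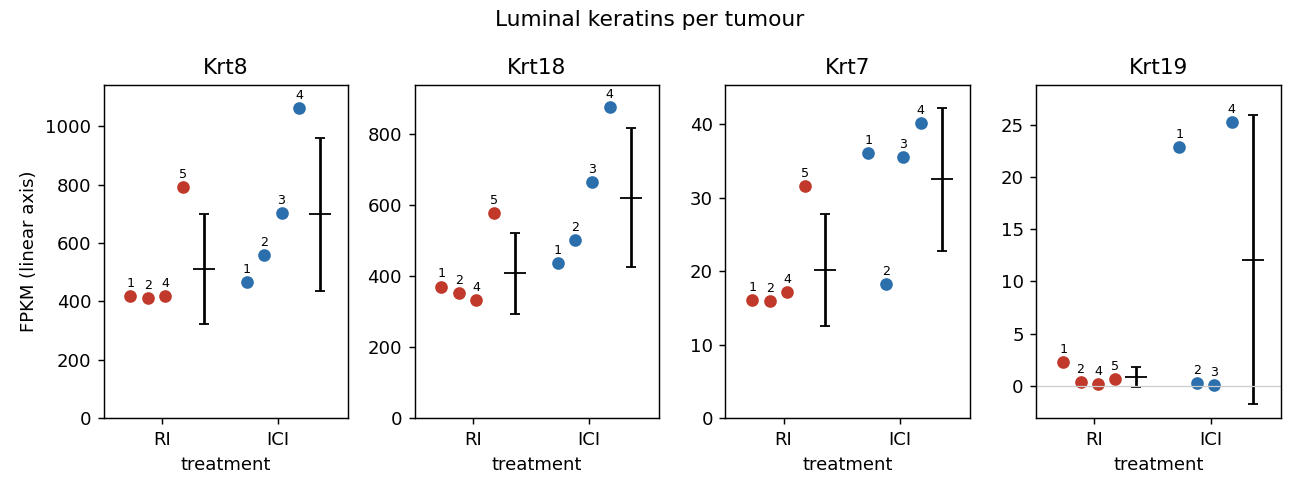
FPKM of Krt8, Krt18, Krt7 and Krt19 (linear axes) in each RI and ICI tumour, with the replicate number above each point and the mean ± SD of the 4 tumours beside it. RI 5 lies above the other 3 RI tumours for Krt8, Krt18 and Krt7, and Krt19 is at 22.8 and 25.2 FPKM in ICI 1 and ICI 4 and at most 2.26 FPKM elsewhere.

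Krt19, the smallest type I keratin, which lacks the usual tail domain, was abundant in ICI 1 and ICI 4 and low in the other 6 tumours. It had 2.26, 0.369, 0.148 and 0.645 FPKM in RI 1, 2, 4 and 5, against 22.8, 0.227, 0.0881 and 25.2 FPKM in ICI 1, 2, 3 and 4. ICI 1 and ICI 4, with 1396 and 1993 fragments, held nearly all of its signal, while ICI 2 and ICI 3, with 17 and 6 fragments, lay within or below the RI range of 10 to 113. On the log2(FPKM + 1) scale the means differed by -1.66 (two-sided exact permutation p = 0.4), and the groups overlapped. The difference was -0.94 without ICI 1 and -0.90 without ICI 4. Relative to Krt18 it was 0.000445 to 0.00608 in RI tumours, against 0.0522 in ICI 1, 0.0288 in ICI 4 and at most 0.000453 in ICI 2 and ICI 3.

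Other genes of luminal epithelium were compared in the same tumours. Of 18 on that list, 8 passed the filter, 1 rose, 2 fell and 5 did not pass, against 17.7% called over all genes tested (11.1% higher and 6.6% lower in RI). Cldn3, a tight junction claudin, fell to 12.9 ± 3.44 FPKM in RI, against 24.1 ± 7.71 FPKM in ICI (SD, n = 4 each; log2 difference -0.84, adjusted p = 0.0476). Esrp2, a splicing regulator of epithelial cells, fell to 1.48 ± 0.0908 FPKM in RI, against 3.94 ± 1.89 FPKM in ICI (SD, n = 4 each; -0.92, adjusted p = 0.0337). St14, the membrane protease matriptase, rose to 4.63 ± 0.773 FPKM in RI, against 2.58 ± 0.737 FPKM in ICI (SD, n = 4 each; 0.66, adjusted p = 0.0342). The median difference of the 8 was -0.11, against 0.01 over all genes, and the summed level was 81.8 to 139 FPKM in RI and 121 to 152 FPKM in ICI tumours. A further 4 members, below the filter, were picked after their values were seen, because they are high where Krt19 is. Epcam, an adhesion protein of epithelial cells, had 1.06, 0.113, 0 and 0.203 FPKM in RI 1, 2, 4 and 5, against 5.02, 0.0678, 0.0372 and 3.19 FPKM in ICI 1, 2, 3 and 4. Cldn7 had at most 0.0988 FPKM in RI tumours, against 3.83 in ICI 1, 2.12 in ICI 4 and at most 0.154 in the other ICI tumours. Rab25, a GTPase of epithelial recycling, had at most 0.288 FPKM in RI tumours, against 2.69 in ICI 1 and 1.62 in ICI 4. Esrp1 had at most 0.0528 FPKM in RI tumours, against 1.75 in ICI 1 and 0.499 in ICI 4. ICI 1 and ICI 4 were the highest of the 8 tumours for all 4 genes and for Krt19. Of the other members, Cldn3, Esrp2, Muc1, Cldn4, Elf5, Grhl2, Ovol1 and Ovol2 were also highest in ICI 1 and ICI 4. Cldn3 had 34.3 and 25.9 FPKM there and at most 18.2 FPKM elsewhere. Esrp2 had 6.55 and 3.95 FPKM there and at most 3.14 FPKM elsewhere. This pattern was absent in Spint1, Spint2, St14, Cdh1, Elf3 and Prom2. Spint1, a protease inhibitor, was lowest in ICI 1 (13.0 FPKM), St14 was lowest in ICI 4 and ICI 1 (1.91 and 2.24 FPKM), and Cdh1 (E-cadherin) was highest in RI 5 (10.5 FPKM). Whether the source is the cancer cells or host epithelium was not tested.

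**Figure D3:**
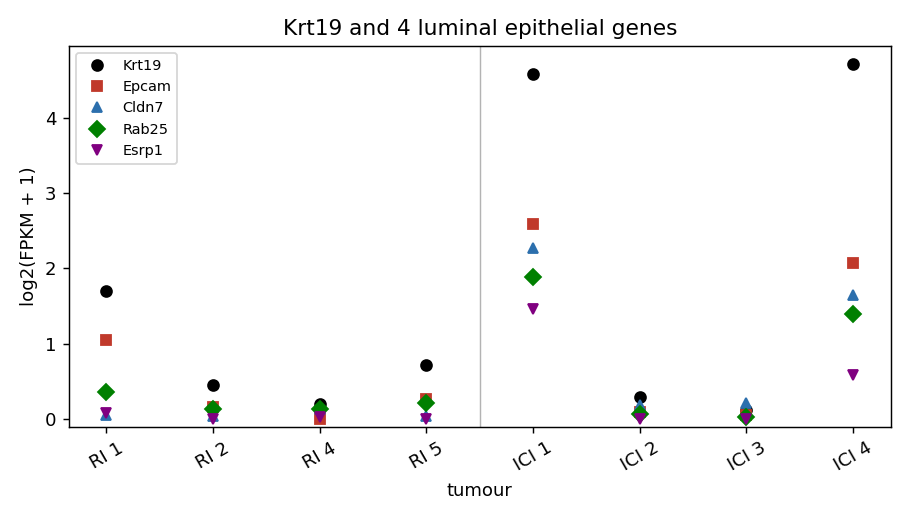
Log2(FPKM + 1) of Krt19, Epcam, Cldn7, Rab25 and Esrp1 in the 4 RI tumours (left of the line) and the 4 ICI tumours (right). All 5 genes have their highest values in ICI 1 and ICI 4, and RI 1 is next for Krt19, Epcam, Rab25 and Esrp1.

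Among the basal keratins, Krt14, the type I chain of basal epidermis and of basal mammary cells, was the most abundant. It had 1.87, 1.75, 0.829 and 3.40 FPKM in RI 1, 2, 4 and 5, against 0.0863, 0.846, 0.651 and 1.31 FPKM in ICI 1, 2, 3 and 4. RI 4 lay inside the ICI range and the other RI tumours above it. It averaged 1.96 ± 1.07 FPKM in RI and 0.723 ± 0.507 FPKM in ICI (SD, n = 4 each), a log2 difference of 0.76 (SE 0.31, 95% interval 0.08 to 1.45) that did not pass (limma with Benjamini-Hochberg adjusted p = 0.106). It passed with array weights (0.67, adjusted p = 0.0305) and with each library's trend on exon length removed (0.93, adjusted p = 0.0371).

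Krt17, a type I keratin of the hair follicle and of injured skin, had 0.310, 0.321, 0.425 and 3.77 FPKM in RI 1, 2, 4 and 5, against 0.0587, 0.224, 0 and 0.242 FPKM in ICI 1, 2, 3 and 4. All 4 RI values lay above all 4 ICI values, and RI 5 alone held 249 of its 335 fragments. On the log2(FPKM + 1) scale the means differed by 0.72 (two-sided exact permutation p = 0.0286, the smallest possible, not adjusted for the 13 keratins so tested). Without RI 5 it was 0.26, and with 7 tumours p cannot go below 0.0571. Krt16, its relative of wounded epidermis, had 0.639, 0.278, 0.720 and 1.63 FPKM in RI 1, 2, 4 and 5, against 0.0194, 0.111, 0.662 and 0.901 FPKM in ICI 1, 2, 3 and 4. Those groups overlapped (0.35, two-sided exact permutation p = 0.286). Krt15, a type I keratin of basal cells, averaged 0.205 ± 0.289 FPKM in RI and 0.0651 ± 0.109 FPKM in ICI (SD, n = 4 each), and 48 of its 77 fragments came from RI 5. RI 5 was the tumour with the highest value for 10 keratins, among them Krt14, Krt15, Krt16, Krt17 and Krt13. The summed basal keratins were 2.71, 2.11, 1.33 and 7.81 FPKM in RI 1, 2, 4 and 5, against 0.179, 1.07, 0.651 and 1.78 FPKM in ICI 1, 2, 3 and 4.

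Sequences shared between these genes bear on their single values. Of the 50-base stretches of its exons, Krt14 shares 188 with Krt16 (11% of those of Krt14 and 12.4% of those of Krt16) and 55 with Krt17. Krt6a and Krt6b share 972, which is 40.2% and 44.5% of theirs, so the value of each is uncertain. How fragments with more than 1 match were counted is not given in the sources used here.

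Genes of the epidermal basal layer other than keratins were present, in part at levels far above the basal keratins. Of the 12 on that list 7 passed the filter, 1 rose, 1 fell and 5 did not pass, and 17.7% of all genes tested were called. Itga6, a laminin receptor chain of hemidesmosomes, rose to 27.1 ± 2.30 FPKM in RI, against 16.3 ± 4.18 FPKM in ICI (SD, n = 4 each; log2 difference 0.73, adjusted p = 0.0351). Sox15, a transcription factor, fell to 8.73 ± 1.77 FPKM in RI, against 18.2 ± 4.36 FPKM in ICI (SD, n = 4 each; -0.97, adjusted p = 0.0209). Trp63, which encodes the p63 factor of basal cells, was named after its values were seen and had 0.0265 to 0.109 FPKM in RI and 0.00325 to 0.0336 FPKM in ICI tumours. The summed level of the list was 129 to 158 FPKM in RI and 90.5 to 158 FPKM in ICI tumours. Its part in the values of Krt14 and Krt17 was not tested.

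Krt10 was the 1 keratin that the main fit called changed. It is the type I chain that pairs with Krt1 above the basal layer. It had 0.735, 1.12, 0.442 and 0.255 FPKM in RI 1, 2, 4 and 5 (42, 76, 34 and 23 fragments), against 2.30, 1.71, 1.73 and 1.93 FPKM in ICI 1, 2, 3 and 4 (160, 146, 134 and 174 fragments). All 4 RI values lay below all 4 ICI values, a pattern shared by 11.2% of the genes tested. It fell to 0.638 ± 0.376 FPKM in RI, against 1.92 ± 0.273 FPKM in ICI (SD, n = 4 each), a log2 difference of -0.86 (SE 0.20, 95% interval -1.29 to -0.42, limma with Benjamini-Hochberg adjusted p = 0.0227). Expressed as a ratio of means this is 0.332, since the scale with a pseudocount of 1 understates the change of low genes. Its place among the genes tested rests on the 4 ICI tumours, because of the RI tumours RI 2 alone reached 1 FPKM. The call was lost without RI 5 (-0.74, adjusted p = 0.0514) or without ICI 4 (-0.85, adjusted p = 0.0682), with TPM (-1.10, adjusted p = 0.186) and without the filter (adjusted p = 0.0683). TPM divides by the summed FPKM of a tumour, which was 717092 in RI 4, and so lowers every RI 4 value relative to the other tumours. An antisense gene, Gm11940, shares 146 of the 2114 exon bases of Krt10 and had 0.178, 1.57, 0.264 and 0 FPKM in RI 1, 2, 4 and 5, against 0.131 FPKM in ICI 3 and 0 in the other ICI tumours. Whether the counting used strand is not given, so fragments in the shared bases cannot be assigned.

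**Figure D4:**
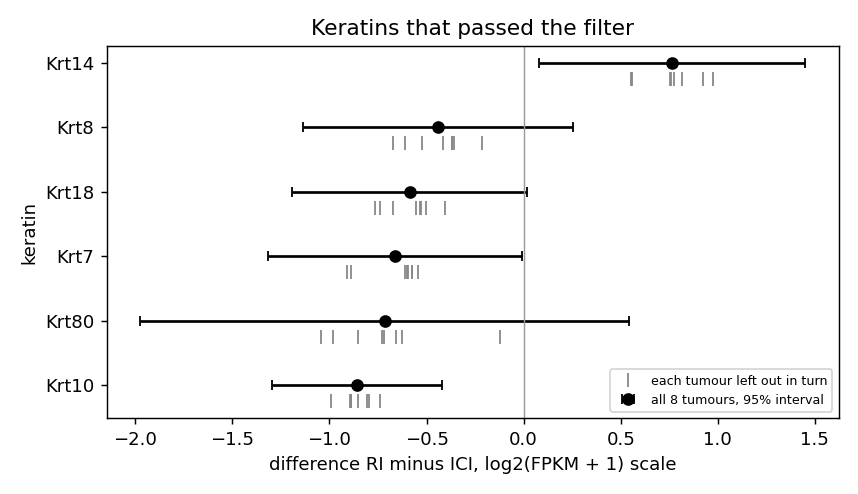
Log2 difference RI minus ICI of the 6 keratins that passed the filter, on the log2(FPKM + 1) scale, with the 95% interval over all 8 tumours (bars) and the values with each tumour left out in turn (ticks). The intervals of Krt10 and Krt7 lie below 0 and that of Krt14 above it, and no tick crosses 0.

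Krt10 and Krt14 were detected almost without their type II partners. Krt10 had 789 fragments over the 8 tumours and Krt1 had 5. Krt14 had 701 fragments, against 27 of Krt5, of which 26 came from RI 1. Krt16 and Krt17 together had 632, and Krt6a and Krt6b, type II keratins induced in wounded epidermis, together had 10. Krt13, the type I keratin of the lining of mouth and oesophagus, had 64 fragments, against 5 of its partner Krt4. The luminal pair was unlike these, with 222001 fragments of Krt18 and 357336 of Krt8.

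**Figure D5:**
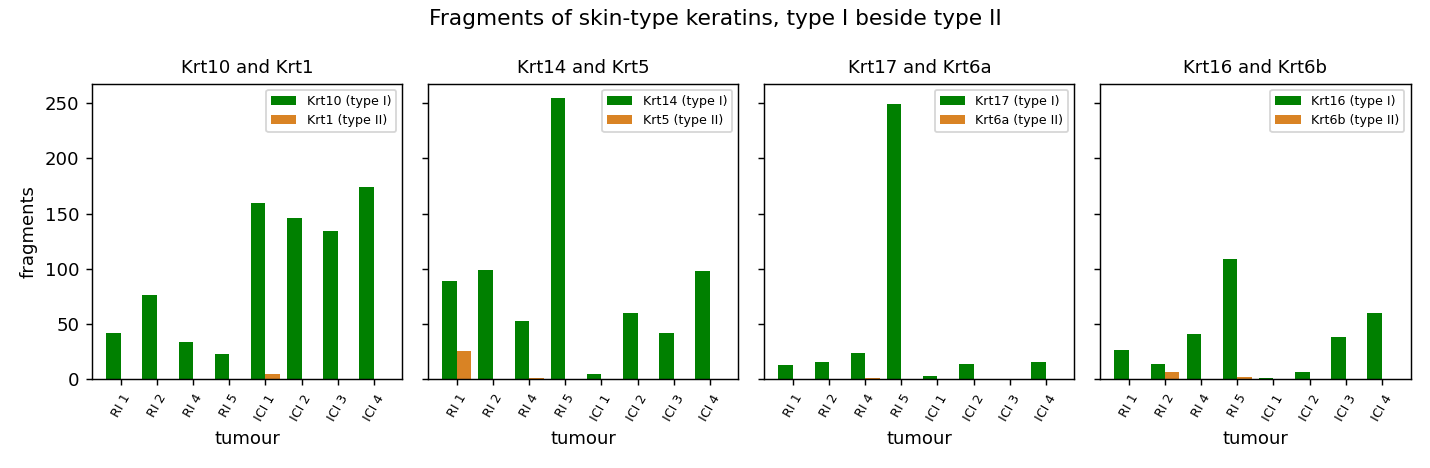
Fragments of skin-type keratins in the 4 RI tumours (left) and the 4 ICI tumours (right), with the type I gene in green and the type II partner in orange. The type I bars reach 255 fragments, while the type II bars reach 26 (Krt5 in RI 1) and are at or near 0 elsewhere.

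Markers of the cornifying epidermis were looked at for the same tumours. Of 19 list genes found, 12 stayed under 1 FPKM in every tumour, and 5 passed the filter. Limma with Benjamini-Hochberg adjustment called 0 of the 5, with 1 at an unadjusted p under 0.05 (Asprv1), and limma voom called 0. Their summed level was 13.0 to 30.5 FPKM in RI and 20.3 to 283 FPKM in ICI tumours. In ICI 1 the sum consisted mostly of Asprv1, a protease of the granular layer, at 255 FPKM, against 0.431 to 1.97 FPKM in RI tumours and 4.02 to 10.4 FPKM in the other ICI tumours (adjusted p = 0.0837). The others that passed the filter were Lypd3, Sfn, Tgm1 and Sbsn. Lypd3 had 5.22 to 14.6 FPKM in RI and 3.00 to 18.7 FPKM in ICI tumours. Sfn had 3.87 to 7.13 FPKM in RI and 3.47 to 11.2 FPKM in ICI tumours. Tgm1 had 0.522 to 1.24 FPKM in RI and 1.04 to 9.15 FPKM in ICI tumours, highest in ICI 1. Below the filter, Sprr1a and Dmkn alone reached 1 FPKM in any tumour. Sprr1a had 0 to 0.640 FPKM in RI and 0 to 3.44 FPKM in ICI tumours, highest in ICI 4. Dmkn had 0.142 to 0.888 FPKM in RI and 0.0994 to 2.38 FPKM in ICI tumours, highest in ICI 1. Lor, Flg and Ivl, late products of cornification, were picked by name after their values were seen, and they are among the lowest of the list. Lor (loricrin) was at 0 in 5 of 8 tumours and at most 0.251 FPKM in RI 5. Flg (filaggrin) was at 0 in 7 of 8 tumours and Ivl (involucrin) in 6 of 8. The part of epidermal cells in the fall of Krt10 was not tested beyond these levels.

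The remaining suprabasal keratins gave few fragments. Krt79, a keratin of the hair canal and sebaceous duct, had 70 fragments, of which 45 came from ICI 1. Krt76, Krt6b, Krt4, Krt6a and Krt78 had 11, 9, 5, 1 and 1 fragments over the 8 tumours. The summed suprabasal keratins, mostly Krt10 and Krt16, were 1.42, 1.59, 1.28 and 2.38 FPKM in RI 1, 2, 4 and 5, against 2.67, 1.84, 2.44 and 3.21 FPKM in ICI 1, 2, 3 and 4. RI 5 lay inside the ICI range and the other RI tumours below it.

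Hair keratins were at the limit of detection in most tumours, and none of the 9 passed the filter. Their sum was 0.280, 0.376, 0.231 and 0.838 FPKM in RI 1, 2, 4 and 5, against 2.76, 0.261, 0.287 and 1.60 FPKM in ICI 1, 2, 3 and 4. ICI 1 and ICI 4 stood above the rest, and ICI 2 and ICI 3 lay inside the RI range. Krt86, a type II keratin of the hair shaft, gave 108 of its 127 fragments in ICI 1 and 0 in the 4 RI tumours. Krt87, of the same kind, had 0 to 0.659 FPKM in RI and 0.0653 to 1.39 FPKM in ICI tumours, highest in ICI 4 (difference -0.27, two-sided exact permutation p = 0.457). Krt83 gave 19 of its 22 fragments in ICI 1. Krt86 shares 258 of its 50-base stretches with Krt87 and 336 with Krt83, so the value of each is uncertain. The root sheath keratins Krt25, Krt27, Krt28 and Krt75 had 1, 24, 5 and 4 fragments, and the type I hair keratins Krt31 and Krt36 had 20 and 7. Of 14 hair genes other than keratins, 1 passed the filter and rose, where 11.1% of all genes tested were called higher in RI. It was Padi3, an enzyme that converts arginine in hair proteins to citrulline, with 7.15 ± 3.54 FPKM in RI, against 3.29 ± 0.396 FPKM in ICI (SD, n = 4 each; log2 difference 0.84, adjusted p = 0.0478). The other list genes that reached 1 FPKM in any tumour were Krtap17-1, Shh and Tchh, all below the filter and highest in an ICI tumour. Krtap17-1 had 5.74 FPKM in ICI 4 and 0 in the RI tumours. In ICI 1, Shh had 2.31 FPKM and Tchh 1.17 FPKM, against at most 0.106 and 0.117 FPKM in RI tumours. The list's summed level was 4.86 to 14.3 FPKM in RI and 3.72 to 11.04 FPKM in ICI tumours, and 6 of its members stayed under 0.1 FPKM in every tumour.

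Of the 7 other keratins, Krt80, a type II keratin found in many epithelia, was the most abundant. It had 1.35, 1.21, 1.72 and 2.51 FPKM in RI 1, 2, 4 and 5, against 14.0, 1.20, 3.34 and 1.52 FPKM in ICI 1, 2, 3 and 4. ICI 1, with 2955 of 6029 fragments, stood far above the other tumours, which overlapped. It averaged 1.70 ± 0.585 FPKM in RI and 5.02 ± 6.08 FPKM in ICI (SD, n = 4 each), a log2 difference of -0.72 (limma with Benjamini-Hochberg adjusted p = 0.379), and -0.12 without ICI 1 (adjusted p = 0.765). Krt23, a type I keratin, had fragments in RI 5, ICI 1 and ICI 4 alone (16, 58 and 30). Krt42 gave 67 of its 109 fragments in RI 5. Krt20, known from intestinal and bladder lining, had 0.0192 to 0.307 FPKM in RI and 0 to 0.141 FPKM in ICI tumours (0.08, two-sided exact permutation p = 0.429). Krt88, Krt222 and Krt90 had 62, 48 and 1 fragments.

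The tumours differed in which keratins were highest. RI 5 held the highest value of 10 keratins, ICI 1 of 8 and ICI 4 of 7, while RI 1, RI 2, RI 4, ICI 2 and ICI 3 held 2, 3, 2, 1 and 1. In ICI 4 these included all 4 luminal keratins, and in ICI 1 Krt80, Krt10, Krt86 and Krt23. Outside the luminal group the type I keratins summed to 3.91, 4.04, 3.12 and 11.5 FPKM in RI 1, 2, 4 and 5, against 3.87, 3.16, 3.57 and 5.50 FPKM in ICI 1, 2, 3 and 4. The type II keratins outside that group summed to 2.28, 1.74, 1.78 and 3.44 FPKM in RI 1, 2, 4 and 5, against 17.7, 1.68, 3.44 and 3.62 FPKM in ICI 1, 2, 3 and 4. RI 5 thus stood out by its type I and ICI 1 by its type II keratins.

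Proteins that bind keratin filaments to desmosomes and hemidesmosomes were measured alongside. Of 15 found, 11 passed the filter. Limma with Benjamini-Hochberg adjustment called 0 of them, with 0 at an unadjusted p under 0.05 and 0 called by limma voom. Their median difference was -0.04, against 0.01 over all genes. Plec (plectin), which links filaments to hemidesmosomes and to other cytoskeletons, averaged 66.4 ± 4.51 FPKM in RI and 61.7 ± 12.2 FPKM in ICI (SD, n = 4 each; adjusted p = 0.645). Pkp3 (plakophilin 3), a desmosomal plaque protein, averaged 27.6 ± 4.58 FPKM in RI and 37.0 ± 6.91 FPKM in ICI (SD, n = 4 each; -0.40, adjusted p = 0.140). Of 16 other intermediate filament genes 7 passed the filter, with 1 rise, 0 falls and a median difference of 0.14, and the share called is near the 17.7% of all genes. Nes (nestin), a filament protein of progenitor and vessel cells, rose to 20.0 ± 1.25 FPKM in RI, against 13.2 ± 1.85 FPKM in ICI (SD, n = 4 each; 0.57, adjusted p = 0.0240).

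Markers of the mesenchymal state and of skeletal muscle were counted in the same way. Of 9 mesenchymal genes 6 passed the filter, 1 rose, 1 fell and 4 did not pass, against 17.7% of all genes called, and their median difference was -0.12. Fn1 (fibronectin) rose to 109.9 ± 43.9 FPKM in RI, against 42.7 ± 21.9 FPKM in ICI (SD, n = 4 each; log2 difference 1.42, adjusted p = 0.0385). S100a4 fell to 5.49 ± 1.07 FPKM in RI, against 9.30 ± 2.40 FPKM in ICI (SD, n = 4 each; -0.65, adjusted p = 0.0499), and the difference was -0.29 (adjusted p = 0.274) with the exon length trend removed. The list summed to 797 to 1049 FPKM in RI and 796 to 1528 FPKM in ICI tumours. Of 12 skeletal muscle genes 11 passed the filter, of which 3 rose (Atp2a1, Ckm and Myh4), 0 fell and 8 did not pass, against 11.1% of all genes higher and 6.6% lower in RI. The median difference was 2.06, and limma voom called 1 of the 11, with adjusted p = 0.0669 for Ckm and 0.0946 for Myh4. Over all genes limma voom called 3473 of 13320. The muscle genes summed to 149 to 676 FPKM in RI and 16.0 to 323 FPKM in ICI tumours. The part of muscle and other host tissue in the keratin values was not tested. Of the 12 genes outside the keratin family called here and above, with adjusted p up to 0.133 when a tumour was left out, the number still called was 1 without RI 1, 0 without RI 2, 4 without RI 4, 4 without RI 5, 7 without ICI 1, 4 without ICI 2, 9 without ICI 3 and 0 without ICI 4. It was 5 with the exon length trend removed, which ended the calls of Itga6 (adjusted p = 0.0912), Sox15 (0.101), Cldn3 (0.112), St14 (0.0539), Fn1 (0.0740), S100a4 and Nes (0.0526). It was 2 with TPM, 0 without the filter and 9 with limma voom.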

How the data were processed

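RNA from 8 tumours of the 4T1 line was sequenced, and the authors deposited 1 table of FPKM per gene and tumour. Per the submitters' processing notes, HISAT2 and the assembly GRCm38 (mm10) were used. Versions, the counting program, the annotation and any filter are not given in these sources. Groups and replicate numbers come from the titles.

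Identifiers of 31378 of the 32098 rows were found in GENCODE M21, which gave exon lengths and coordinates. FPKM multiplied by exon length moves in steps of 1 fragment, and 98.6% to 98.8% of values of up to 50 fragments lay within 0.05 of a whole number. Fragments so recovered give depth and 1 alternative fit. Every pair of libraries differed by more than sampling noise, with a chi-square of 31.2 per gene or above.

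Genes that reached 1 FPKM in 4 or more tumours were tested on log2(FPKM + 1) with limma 3.58.1 in R 4.3.3, using lmFit and a two-sided moderated test from eBayes (trend and robust options on). Adjusted p-values are Benjamini-Hochberg over these 13439 genes, called under 0.05, and no p was adjusted over a list alone. Keratins below the filter with values above 0 in at least 4 tumours were compared over all 70 regroupings (exact permutation test, scipy 1.17.1).

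Keratins, groups and 13 gene lists were chosen with earlier results of these data known. Named with the value in every tumour are the luminal keratins, up to 4 of each other group with a mean of at least 0.5 FPKM, and any called. Of other lists, the 4 most abundant members and those called may be named. Other names are stated as chosen after their values were seen, or are given because every member of a kind is named. The alternatives were other filters, pseudocounts of 0.1 and 5, TPM, 3 other scalings, another variance model, array weights, removal of the exon length trend (lowess, span 0.3), limma voom on fragments, the replicate number as a block with and without the length trend, each tumour left out, and ICI 1 and RI 4 left out together. The labels name no batch.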

Additional observations from a re-analysis of the deposited data

Results flagged for a closer look

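In 28 groups of 4 tumours, 14 quantities in each treatment, the gap between the most extreme tumour and its neighbour was divided by the range of the group, and 6 groups (21.4%) lay above the critical value of 0.829. Chance flags about 1 in 20 groups, and the quantities are not independent. In the RI group RI 5 stood above the other 3 tumours, with a ratio of 0.979 for Krt8 (792 FPKM), 0.845 for Krt18 (577 FPKM), 0.917 for Krt7 (31.6 FPKM), 0.94 for the summed luminal keratins (1401 FPKM) and 0.967 for Krt17 (3.77 FPKM). In the ICI group ICI 1 stood above the others for Krt80, with a ratio of 0.833 (14.0 FPKM).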

How the results depend on the processing

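Over all genes 2373 were called changed, against 241 without the filter, 280 with TPM and 4319 with array weights. The TPM scaling divides by the summed FPKM, which stood apart in RI 4 (717092), and the part of this in the 280 was not tested. Leaving out 1 tumour gave 336 to 2693, the lowest without ICI 4, and 999, 672 and 1017 genes when RI 1, RI 2 or RI 5 was the one left out. The share of calls higher in RI was 62.6%, against 48.0% with median centring, 53.4% with upper-quartile scaling and 53.0% with the exon length trend removed, and TPM moved the median of all genes to 0.11. Of the keratins 1 was called, against 0 without the filter, with a mean of at least 5 FPKM (which left 4 keratins) and with TPM, 3 with array weights and 2 with the length trend removed. Leaving out 1 tumour gave 0 to 2, with 0 without RI 5 or ICI 4 and 2 without ICI 2. With 7 tumours p cannot reach 0.05 in the permutation test of keratins below the filter, so that count of 1 was 0 to 0 there. Krt8 alone turned its sign, to 0.10 with quantile normalization. For the summed keratin groups, the log2 ratio of mean RI to mean ICI also moved when 1 tumour was left out. It ran from -0.79 to -0.29 for luminal and from 1.15 to 2.46 for basal keratins. For suprabasal keratins it ran from -0.83 to -0.47, and for hair keratins from -2.05 to -0.73. The causes were not tested. With the replicate number as a block 22 genes and 0 keratins were called (Krt10 -0.77, adjusted p = 0.119), and 3 genes and 0 keratins with the length trend removed as well. RI 5 and ICI 3 share their number with no other tumour, so they add nothing to the blocked comparison. Fewer tumours are thus left to measure the spread, and these counts are not a test of pairing. Tumours sharing a number did not deviate together (correlations of -0.0923, -0.12 and -0.124). Tumours with different numbers gave -0.152 to 0.205. The values show no sign of pairing by number, but so few pairs cannot exclude it. Depth limits the keratins outside the luminal group, of which most had under 100 fragments in all.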

Other observations

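Other cell types of skin and stroma were represented as follows. Of 7 sebaceous gland genes 3 passed the filter, and limma called 0 of them, with 0 at an unadjusted p under 0.05 and 0 called by limma voom. They summed to 45.8 to 90.3 FPKM in RI and 44.0 to 94.3 FPKM in ICI tumours, mostly Plin2, a coat protein of lipid droplets in many cell types. None of the 4 melanocyte genes found passed the filter, and they summed to 0.314 to 0.786 FPKM in RI and 0.206 to 3.27 FPKM in ICI tumours, highest in ICI 1. Of 7 myoepithelial genes 2 passed, and limma called 0, with 0 at an unadjusted p under 0.05 and 0 called by limma voom. These summed to 7.26 to 23.3 FPKM in RI and 9.80 to 37.9 FPKM in ICI tumours.

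Of 7 adipocyte genes 2 passed the filter, and limma called 0, with 1 at an unadjusted p under 0.05 and 0 called by limma voom. Their sum was 356 FPKM in RI 2, 6.39 to 18.7 FPKM in the other RI tumours and 3.15 to 11.5 FPKM in ICI tumours. Of 5 proliferation genes limma called 0, with 2 at an unadjusted p under 0.05, and limma voom called 2. For this list and the adipocyte list, the counts over all genes were 4822 of 13439 at an unadjusted p under 0.05 and 3473 of 13320 called by limma voom. The 5 proliferation genes summed to 235 to 265 FPKM in RI and 122 to 222 FPKM in ICI tumours, without overlap. Singly, Top2a (109 to 115 FPKM in RI, 30.5 to 85.4 FPKM in ICI) and Ccnb1 did not overlap. Mki67, Cdk1 and Birc5 did overlap. Of all genes tested, 27.9% did not overlap.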
